A study of Mus musculus with 8 samples.

Results

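The Fox, Sox and Tbx genes encode transcription factors of the forkhead, SOX and T-box families, and 74 of them (42 Fox, 19 Sox and 13 Tbx genes) were among the 19057 named genes on the arrays. They were taken by symbol: a family stem followed by the member's letter or number, with the proliferation factor Foxm1 left out. Expression was measured in 4 CD9high and 4 CD9low samples of adipose progenitors from lean C3H/HeOuJ mice, which were 3 months old. Epididymal white adipose tissue was digested with collagenase and its cells were sorted as CD45-, CD31-, Gp38+ (podoplanin) and PDGFRα+, then split by surface CD9, a tetraspanin. Both fractions share strain, age, lean state, the chow diet named in the sample titles and the rest of the gate. The titles and cell type labels set the fraction of each sample. A further label field of the CD9low samples speaks of high CD9, and the written gate is that of CD9high for both. Separate mice or pools are not named, so p-values measure the spread between these samples only.

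FOX proteins bind DNA through a winged-helix forkhead domain, SOX proteins bend DNA through an HMG box, and TBX proteins bind through a T-box. Members of all 3 families set cell identity in the embryo, and some stay expressed in adult stromal cells. In fat, FOXO1 is switched off by insulin signalling and holds back preadipocyte differentiation, and SOX9 keeps precursor cells from differentiating.

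Cd9 itself was higher in CD9high cells by 3.63 on the log2 scale (limma, adjusted p = 0.000187), and all 4 CD9high arrays read above all 4 CD9low arrays. The gate genes Pdgfra (difference 0.10) and Pdpn (-0.05) were above background on every array. Between 41.1% and 51.1% of probes were above background on an array. CD9low replicate 2 stood apart: its mean correlation with the other arrays of its fraction was 0.863, against 0.917 to 0.948 for every other array with its own. It was the highest or lowest of its fraction for 20 of 29 tested members (69.0%), against 78.7% of all genes, and a member whose difference turned, or moved by more than 1.5 times, without it is given both ways. Without it 6 of the 29 differences turned: Foxc1, Foxc2, Foxs1, Sox18, Tbx6 and Tbx18. Replicates 1 to 3 of both fractions lay on slide 1 and replicates 4 on slide 2.

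A probe counted as measured if 4 or more of the 8 arrays gave it a detection p under 0.05. By this rule 29 of 74 members (39.19%) were measured and tested, against 10724 of 19057 named genes (56.27%). The share was 11 of 19 for Sox (57.89%), 15 of 42 for Fox (35.71%) and 3 of 13 for Tbx (23.08%). The 3 measured Tbx genes were Tbx3, Tbx6 and Tbx18. Among Sox genes, every member of group C (Sox4, Sox11 and Sox12) and of group F (Sox7, Sox17 and Sox18) was measured, as were 2 of 3 in group D (Sox5 and Sox13), 2 of 3 in group E (Sox8 and Sox9) and 1 of 5 in group B (Sox14). Among Fox genes, 4 of 4 Foxp, 2 of 2 Foxk, 2 of 2 Foxc, 2 of 3 Foxj, 2 of 4 Foxo, 1 of 4 Foxn and 1 of 2 Foxf genes were measured, with Foxs1, and 0 of 3 Foxa and 0 of 4 Foxd genes.

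For 33 of the other 45 members no array gave a signal above background. These were 18 Fox genes (Foxa1, Foxa2, Foxb2, Foxd1, Foxd2, Foxd4, Foxe1, Foxe3, Foxf1, Foxh1, Foxi1, Foxi2, Foxl1, Foxn1, Foxn2, Foxn4, Foxq1 and Foxr2), 7 Sox genes (Sox2, Sox3, Sox6, Sox10, Sox15, Sox21 and Sox30) and 8 Tbx genes (Tbx1, Tbx4, Tbx5, Tbx10, Tbx15, Tbx19, Tbx20 and Tbx21). They include factors that define other lineages: Foxa1 and Foxa2 in endoderm, Foxn1 in thymic epithelium, Sox2 in pluripotent and neural cells, Sox10 in neural crest and glia, and Tbx21 in type 1 helper T cells. Foxb1, Foxi3, Foxl2, Foxo4, Foxr1 and Tbx22 were above background on 1 array each, and Foxj1, Foxo6, Sox1 and Tbx2 on 2. Foxa3 was above background on 3 CD9high arrays and 0 CD9low arrays, and Foxd3 on 1 CD9high and 2 CD9low arrays. A probe that stays at background says only that no signal was measurable with it, not that the gene is silent.

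**Figure D1:**
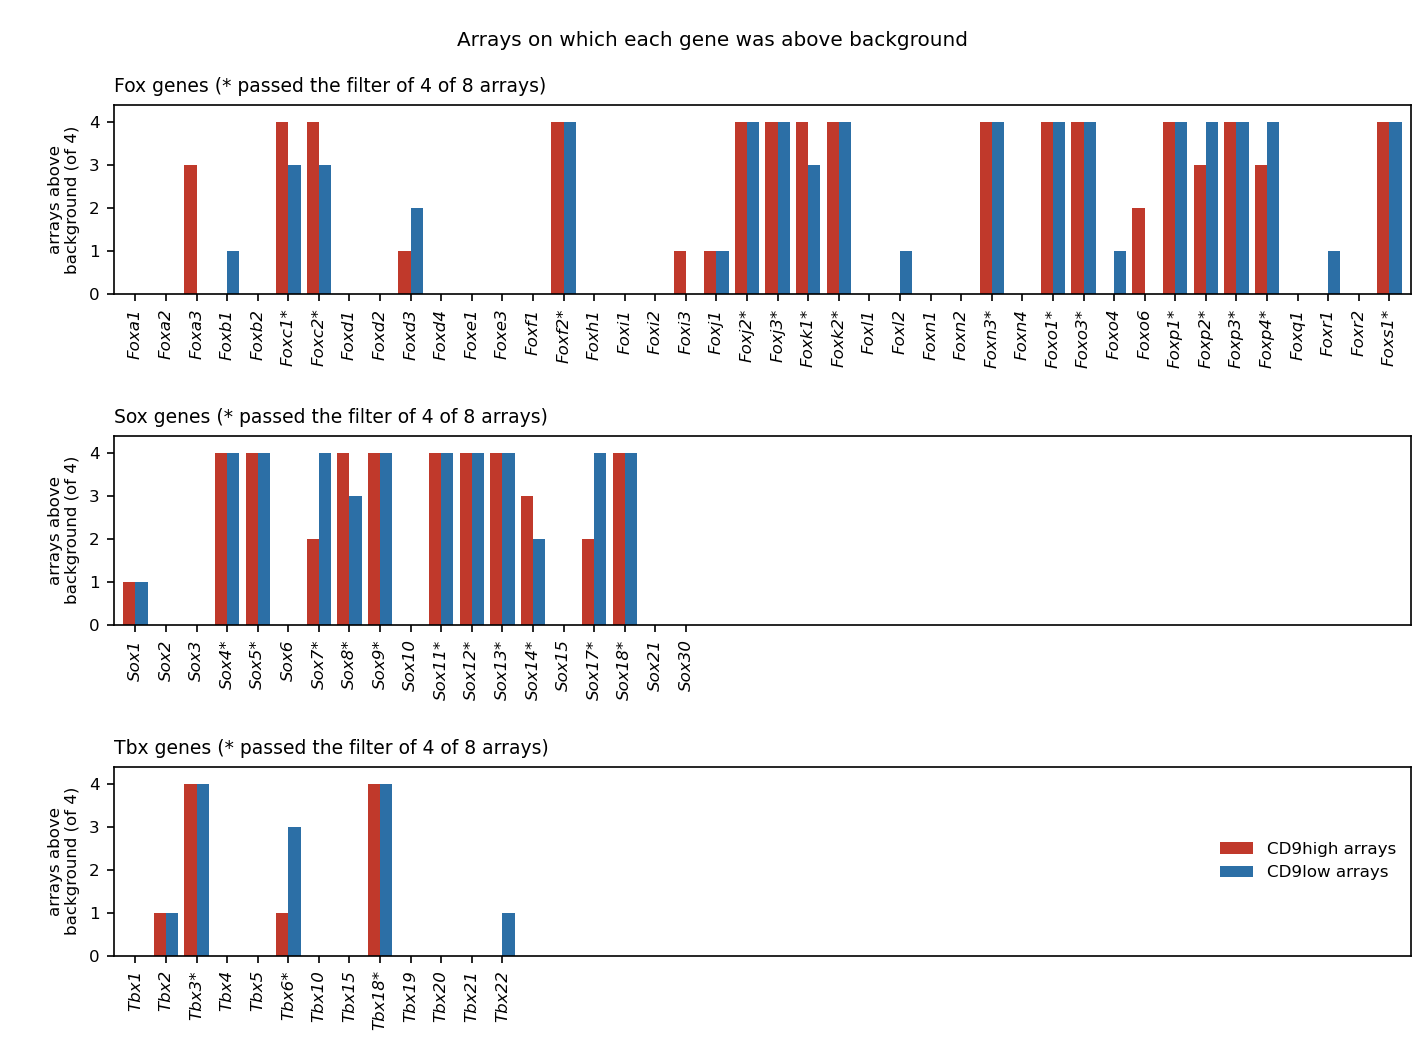
Number of arrays (of 4 per fraction, vertical axis) on which each of the 74 members was above background, with CD9high bars to the left of CD9low bars and an asterisk for the 29 members that passed the filter. Most bars stand at 4 in both fractions or are missing in both, and 33 members have none.

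Several members are neighbours in the genome and were not measured alike. In the RefSeq gene order of GRCm38.p6, Foxq1, Foxf2 and Foxc1 stand next to each other among protein-coding genes. Foxf2 was above background on 8 arrays and Foxc1 on 7, while Foxq1 was on 0. Foxc2, on 7 arrays, stands beside Foxl1 (0 arrays), with 1 gene between it and Foxf1 (0 arrays). Tbx3, on 8 arrays, stands beside Tbx5 on 0. The pairs Tbx2 with Tbx4 (2 and 0 arrays) and Foxd2 with Foxe3 (0 and 0 arrays) were not measured at all by the filter.

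None of the 29 tested members passed the test between fractions (limma, adjusted p under 0.05 over all 10724 genes). The same test called 1.69% of all genes, 121 higher and 60 lower in CD9high cells. At an unadjusted p under 0.05 there were 4 members (13.8%), all lower in CD9high cells: Sox17, Sox11, Sox12 and Sox7. Of all genes 10.7% reached that level, and 5.34% did so with the lower value in CD9high cells. The fractions did not overlap for 2 members, Sox12 and Foxj3, against 7.69% of all genes. This held for the tested probe of each gene, while their other measured probes overlapped. With the mean of a gene's probes 0 members were without overlap, and with median centring 1. A difference of 1 or more on the log2 scale was measured for 3 members (Sox17, Sox11 and Sox12), against 5.25% of all genes.

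Differences of the tested members, CD9high minus CD9low, ran from -1.35 (Sox11) to 0.63 (Foxn3), with 15 above 0 and 14 below. Their median was 0.0073, against -0.04 over all genes, and the median size was 0.28 against 0.26. By family the median was -0.39 for Sox (7 of 11 below 0), 0.04 for Fox (9 of 15 above 0) and 0.15 for Tbx (2 of 3 above 0). Missing the threshold does not show that the fractions are alike: every 95% interval but 4 includes 0, and the interval of Foxs1, for example, reaches from -1.77 to 0.69. With the filter dropped, 0 of 74 members were called by limma and 6 (8.11%) had an unadjusted p under 0.05, against 7.99% of all 19057 genes. The added ones were Foxj3 and Foxa3.

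**Figure D2:**
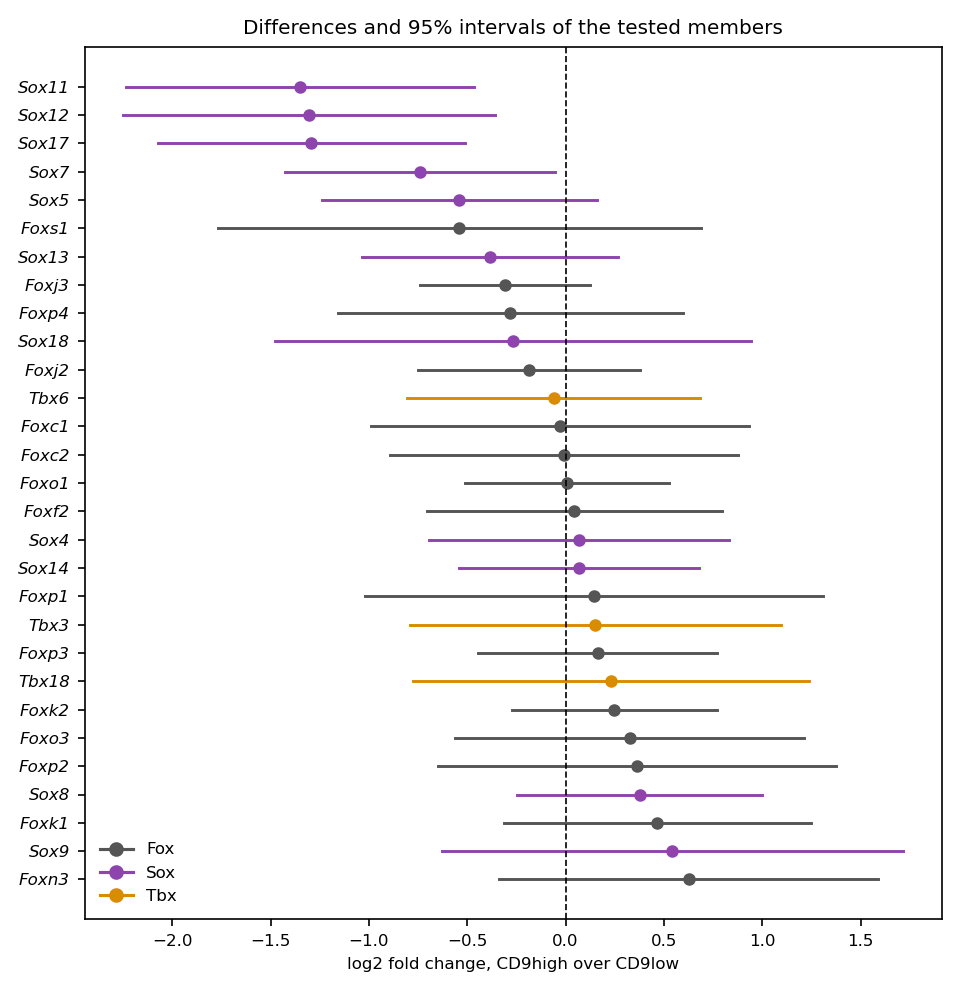
Log2 fold change of CD9high over CD9low (horizontal axis, points) with its 95% interval (lines) for the 29 tested members, coloured by family and ordered by size. The intervals of Sox11, Sox12, Sox17 and Sox7 lie below 0, and every other interval crosses 0.

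Group F Sox factors are known for blood and lymph vessel development, where Sox7, Sox17 and Sox18 act in endothelial cells. All 3 had differences below 0 on all arrays together, that of Sox18 only while CD9low replicate 2 was included. Sox17 had normalized log2 intensities of 4.76, 4.90, 5.21 and 4.54 on the CD9high arrays, against 6.16, 6.44, 6.86 and 5.12 on the CD9low arrays. The highest CD9high array read just above the lowest CD9low array, and the rest were apart. Sox17 was above background on 2 of 4 CD9high arrays and 4 of 4 CD9low arrays. Its CD9low arrays alone met the filter, and the size of its difference rests in part on CD9high signals near background. The means were 4.85 ± 0.28 in CD9high cells and 6.15 ± 0.74 in CD9low cells (SD, n = 4 each), a difference of -1.29 (SE 0.35, 95% interval -2.07 to -0.51, limma adjusted p = 0.129), or 0.408 times. It was the lowest adjusted p of any tested member. Slide 1 gave -1.53 and slide 2 -0.58. The adjusted p was 0.0369 without CD9low replicate 4, whose value was the lowest of its fraction, with a difference of -1.64, and an offset of 50 brought the difference to -0.76. All these values come from 1 of 2 Sox17 probes. The other, above background on 0 CD9high arrays and 1 CD9low array, gave -0.05. In bulk samples, fewer cells of a type and less RNA per cell cannot be told apart.

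Sox7 read 4.52, 4.61, 5.44 and 4.71 in CD9high cells, against 5.31, 5.91, 6.05 and 4.98 in CD9low cells. The fractions overlapped, and Sox7 too was above background on 2 CD9high arrays and 4 CD9low arrays. The size of the Sox7 difference therefore also rests in part on CD9high signals near background. Its difference was -0.74 (SE 0.31, 95% interval -1.43 to -0.06, limma adjusted p = 0.424), and its 3 measured probes gave -0.74, -0.71 and -0.15. With an offset of 50 it was -0.39. Sox18 averaged 5.71 ± 0.71 in CD9high cells and 5.98 ± 1.17 in CD9low cells, a difference of -0.27 within the spread, which turned to 0.17 without CD9low replicate 2.

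The gate was CD31-, and Pecam1, which encodes CD31, was above background on every array, with a difference of -0.40, or -0.02 without CD9low replicate 2. Of the 10 endothelial markers on the list, 8 were measured and 0 passed the test. Over all arrays 7 had a difference below 0, with a median of -0.33, and without CD9low replicate 2 there were 6, with a median of -0.13. The smallest p belonged to Emcn (-0.71, or -0.22 without that array), Cldn5 (-0.84, or -0.20) and Flt1 (-0.41, or -0.35), and Kdr and Tie1 were above background on 3 arrays each. The summed linear intensity of the measured markers ran from 1343 to 1925 on CD9high arrays and from 1202 to 3979 on CD9low arrays, with 2620 as the highest CD9low sum once replicate 2 is left out. Such a sum is weighted to the brightest probes. On CD9low replicate 2 Cldn5 read 11.18 and Tek 9.32 on the log2 scale, and Egfl7 came next at 8.31. On CD9low replicate 2, where the sum was highest, Sox18 had its highest value, 7.29. Sox17 (6.86) and Sox7 (6.05) had theirs on CD9low replicate 3. On CD9low replicate 4, where the sum was lowest, Sox17, Sox7 and Sox18 had the lowest values of the fraction (5.12, 4.98 and 4.83). Across fractions, CD9high replicates 2 and 3 had sums of 1925 and 1909, above the 1755 of CD9low replicate 1. Sox17 read 4.90 and 5.21 on those CD9high arrays against 6.16 on that CD9low array. Sox7 read 4.61 and 5.44 against 5.31, and Sox18 6.62 and 5.81 against 5.18. The part of endothelial RNA in these differences was not tested. Without CD9low replicate 2 the Sox17 difference was -1.20 (adjusted p = 0.201).

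**Figure D3:**
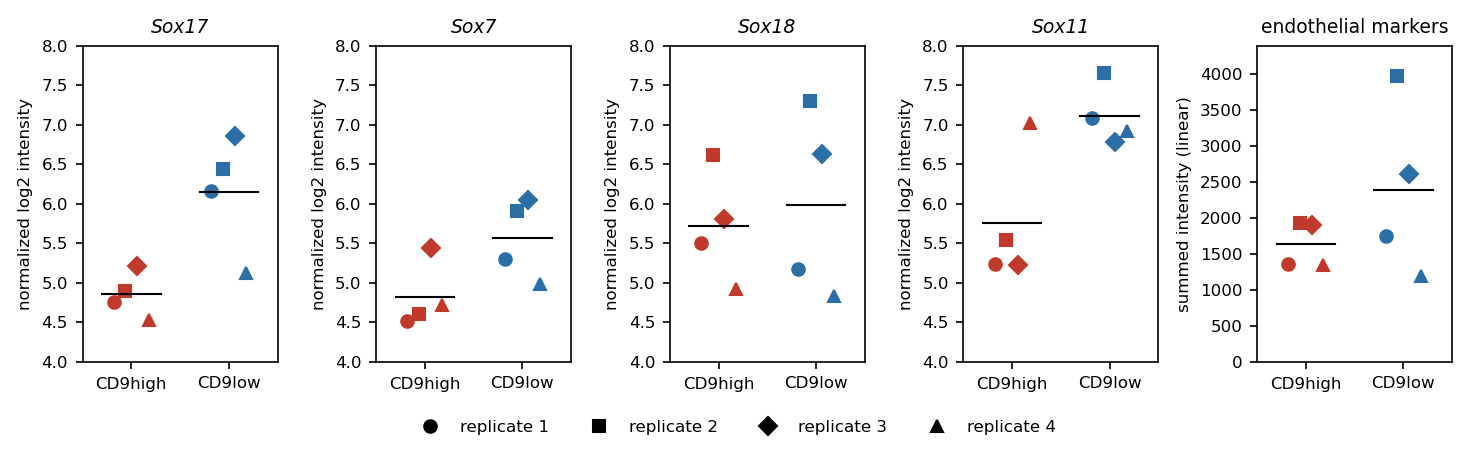
Normalized log2 intensity of Sox17, Sox7, Sox18 and Sox11, and the summed linear intensity of 8 endothelial markers, on each array (symbols by replicate, lines at the fraction means), with CD9high left of CD9low. Sox11 is low on 3 CD9high arrays and at the CD9low level on the fourth, and the endothelial sum is highest on CD9low replicate 2.

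Group C holds Sox4, Sox11 and Sox12, activators that act together in mesenchymal and neural progenitors of the embryo. Sox11 and Sox12 were lower in CD9high cells without passing the test, and Sox4 was not. Their upstream sequences are shown with that of Foxj3, the other member whose fractions did not overlap, because they are the members with a difference of 1 or more or with no overlap for which a promoter entry was at hand. RefSeq promoter entries matched 50 of the 74 members. Each sequence is the 250 bases before the annotated start in GRCm38.p6, read 5′ to 3′ on the strand of the gene, with the dinucleotide CG in capitals. Sox11 is at chr12:27342719-27342968 on the minus strand, Sox12 at chr2:152398047-152398296 on the minus strand and Foxj3 at chr4:119539411-119539660 on the plus strand.
Sox11: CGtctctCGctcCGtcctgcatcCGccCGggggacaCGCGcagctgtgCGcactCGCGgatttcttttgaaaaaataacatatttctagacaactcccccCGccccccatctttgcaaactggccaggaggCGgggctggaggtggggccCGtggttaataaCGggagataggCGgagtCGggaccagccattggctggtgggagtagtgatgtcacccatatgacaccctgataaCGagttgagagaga
Sox12: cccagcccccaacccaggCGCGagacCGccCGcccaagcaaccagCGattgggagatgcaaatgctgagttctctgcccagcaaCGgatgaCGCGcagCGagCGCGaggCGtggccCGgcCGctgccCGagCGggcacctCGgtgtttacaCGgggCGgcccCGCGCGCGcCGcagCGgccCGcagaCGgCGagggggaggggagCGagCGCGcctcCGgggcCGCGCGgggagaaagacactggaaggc
Foxj3: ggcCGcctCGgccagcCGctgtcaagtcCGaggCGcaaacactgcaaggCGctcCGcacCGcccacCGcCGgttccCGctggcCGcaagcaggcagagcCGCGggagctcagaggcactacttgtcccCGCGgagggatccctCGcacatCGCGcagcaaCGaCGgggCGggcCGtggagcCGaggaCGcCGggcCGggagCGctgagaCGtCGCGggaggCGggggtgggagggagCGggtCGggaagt
The Sox12 window held 35 CG, a number reached by 2.97% of the 32851 promoter windows in the table. Foxj3 held 34 (3.53%) and Sox11 held 17 (23.5%), where the median window held 6. CG reads the same on both strands, so these counts do not depend on the strand.

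Sox11 read 5.24, 5.54, 5.23 and 7.02 in CD9high cells, against 7.08, 7.66, 6.78 and 6.92 in CD9low cells. Replicates 1 to 3 of CD9high lay below every CD9low array, and CD9high replicate 4 lay among them. The means were 5.76 ± 0.85 in CD9high cells and 7.11 ± 0.39 in CD9low cells (SD, n = 4 each), a difference of -1.35 (SE 0.40, 95% interval -2.23 to -0.47, limma adjusted p = 0.177). Slide 1 gave -1.83 and slide 2, which holds replicate 4 of each fraction, gave 0.10. Without CD9high replicate 4 the difference was -1.77 (limma adjusted p = 0.0212). The other measured Sox11 probe gave -0.53, and the unmeasured ones gave -0.14 and -0.04.

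Sox12 read 6.69, 5.63, 6.99 and 7.10 in CD9high cells, against 7.59, 8.98, 7.19 and 7.87 in CD9low cells. The fractions did not overlap, though CD9high replicate 4 and CD9low replicate 3 were close, and both extremes were replicates 2. The means were 6.61 ± 0.67 in CD9high cells and 7.91 ± 0.77 in CD9low cells (SD, n = 4 each), a difference of -1.30 (SE 0.43, 95% interval -2.25 to -0.36, limma adjusted p = 0.246). Slides 1 and 2 gave -1.48 and -0.77. Without CD9low replicate 2 it was -0.95. Of 4 Sox12 probes 2 were measured. The other measured one, close to background in both fractions, gave -0.16, and the mean of both gave -0.73. The unmeasured ones gave 0.07 and -0.13. Sox4 averaged 6.20 ± 0.27 in CD9high cells and 6.14 ± 0.73 in CD9low cells, a difference of 0.07 (95% interval -0.70 to 0.83), or 0.36 without CD9low replicate 2.

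Group E and D factors govern cartilage: SOX9 starts the programme and SOX5, with SOX6, amplifies it. Sox9 read 11.04, 11.88, 9.43 and 9.64 in CD9high cells, against 10.42, 9.12, 9.87 and 10.40 in CD9low cells. The CD9high arrays fell on both sides of the CD9low ones. The means were 10.50 ± 1.17 in CD9high cells and 9.95 ± 0.62 in CD9low cells (SD, n = 4 each), a difference of 0.54 (SE 0.53, 95% interval -0.63 to 1.72, limma adjusted p = 0.765). Slide 1 gave 0.98 and slide 2 -0.76, and without CD9high replicate 2 the difference was 0.08. It was 0.26 without CD9low replicate 2, and the other Sox9 probe gave 1.13. Sox8, the related group E gene, differed by 0.38 (5.52 ± 0.36 in CD9high and 5.15 ± 0.43 in CD9low).

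Sox5 read 7.95, 7.38, 8.22 and 8.43 in CD9high cells, against 8.01, 9.19, 8.33 and 8.61 in CD9low cells, with overlap and with the widest gap between the replicates 2. Its difference was -0.54 (SE 0.32, 95% interval -1.24 to 0.16, limma adjusted p = 0.601), and -0.32 without CD9low replicate 2. The 6 measured Sox5 probes did not share a direction: they ran from -0.54 to 0.46, with 3 below 0, and their mean gave -0.08. Sox13, also of group D, differed by -0.39 (5.56 ± 0.27 in CD9high and 5.94 ± 0.54 in CD9low), or by -0.15 without CD9low replicate 2. Sox14, of group B, differed by 0.07 (5.04 ± 0.25 in CD9high and 4.97 ± 0.48 in CD9low).

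Of 13 cartilage genes known to be driven by SOX9, 4 were measured, and 1 of them fell in CD9high cells. It was Cnmd, which encodes chondromodulin, a growth inhibitor of vessels in cartilage: 4.50 ± 0.19 in CD9high cells and 7.48 ± 0.54 in CD9low cells, a difference of -2.98 (SE 0.29, limma adjusted p = 0.000844). It passed the filter through its 4 CD9low arrays and was above background on 1 CD9high array, so the size of this difference rests on CD9high signals near background. Comp, a cartilage and tendon matrix protein, differed by 1.66 (limma adjusted p = 0.198), or by 2.18 without CD9low replicate 2 (limma adjusted p = 0.0117). Leaving out any other array gave limma adjusted p of 0.203 to 0.43. Comp was above background on 4 CD9high and 2 CD9low arrays, so this size rests in part on CD9low signals near background. Acan, the core protein of aggrecan, differed by -0.23. The median of the 4 was -0.02, against -0.04 over all genes.

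**Figure D4:**
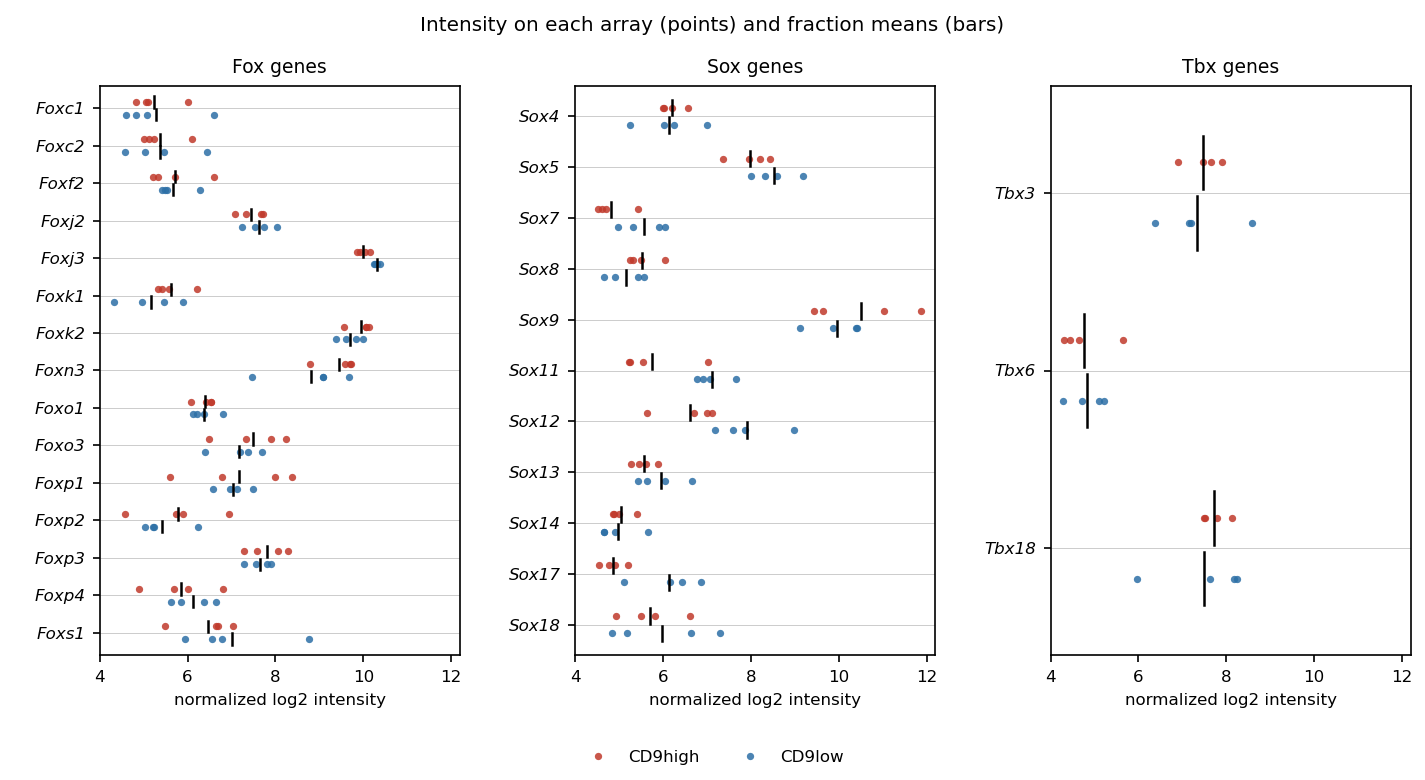
Normalized log2 intensity (horizontal axis) of the 29 tested members on each array (points, with CD9high above CD9low for each gene) and the fraction means (black bars), by family. The fractions overlap for every member but Sox12 and Foxj3, and levels of different genes are not comparable because each comes from its own probe.

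Foxj3 is a forkhead factor known in mouse for muscle fibre type and sperm development. It read 9.86, 10.04, 9.92 and 10.15 in CD9high cells, against 10.27, 10.38, 10.31 and 10.25 in CD9low cells. Every CD9high array lay below every CD9low array, by a small margin between CD9high replicate 4 and CD9low replicate 4. The means were 9.99 ± 0.13 in CD9high cells and 10.30 ± 0.06 in CD9low cells (SD, n = 4 each), a difference of -0.31 (SE 0.20, 95% interval -0.74 to 0.12, limma adjusted p = 0.637). Slides 1 and 2 gave -0.38 and -0.10. Of the 6 measured Foxj3 probes 5 were below 0, over a range of -0.35 to 0.31, and their mean gave -0.17. Foxj2 differed by -0.19 (7.45 ± 0.31 in CD9high and 7.63 ± 0.34 in CD9low).

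Foxn3 is a repressor linked to the cell cycle checkpoint and, in human liver, to glucose metabolism. It read 9.57, 9.72, 9.70 and 8.80 in CD9high cells, against 9.09, 7.46, 9.66 and 9.07 in CD9low cells. The fractions overlapped, and CD9low replicate 2 was far below the rest. The difference was 0.63 (SE 0.44, 95% interval -0.34 to 1.59, limma adjusted p = 0.667), the highest of the tested members, but 0.17 without CD9low replicate 2. Slide 1 gave 0.93 and slide 2 -0.28. All 3 measured probes lay above 0 (0.63, 0.64 and 0.74).

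The Foxk factors repress autophagy genes and act on glycolysis. Foxk2 read 9.56, 10.06, 10.13 and 10.05 in CD9high cells, against 9.37, 9.60, 9.82 and 10.00 in CD9low cells. CD9high replicate 1 was low, and the other CD9high arrays lay above all CD9low ones. The difference was 0.25 (SE 0.24, 95% interval -0.27 to 0.77, limma adjusted p = 0.756), with 0.31 on slide 1 and 0.05 on slide 2, and without CD9low replicate 1 it was 0.14. Foxk1 differed by 0.47 (5.63 ± 0.40 in CD9high and 5.16 ± 0.68 in CD9low), or by 0.18 without CD9low replicate 2. Its 3 measured probes were split, from -0.38 to 0.47.

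Foxp factors work as dimers, and FOXP3 is the defining factor of regulatory T cells. Foxp3 read 7.29, 8.30, 7.57 and 8.06 in CD9high cells, against 7.29, 7.90, 7.81 and 7.56 in CD9low cells. The ranges lay over each other, with a difference of 0.16 (SE 0.27, 95% interval -0.44 to 0.77, limma adjusted p = 0.876), which was 0.05 on slide 1 and 0.49 on slide 2. Without CD9low replicate 2 the difference was 0.25. Only 2 of 4 Foxp3 probes were measured. The other measured one gave -0.01, and the unmeasured ones were above background on 0 arrays. Of 6 T cell markers on the array 2 were measured, Cd8a (difference 0.20, above background on every array) and Cd2 (0.04, on 4 CD9high and 3 CD9low arrays), while Cd3d and Cd3g were above background on 0 arrays, Cd4 on 1 and Cd3e on 2. Their summed intensity ran from 64.5 to 101 in CD9high cells and 58.0 to 74.9 in CD9low cells. The source of the Foxp3 signal was not tested.

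The remaining Foxp genes differed by less than the spread within fractions. Foxp1, which regulates lymphocyte and lung development, averaged 7.18 ± 1.25 in CD9high cells and 7.04 ± 0.37 in CD9low cells, a difference of 0.14. Foxp2, best known for its role in speech circuits, averaged 5.79 ± 0.97 in CD9high cells and 5.43 ± 0.54 in CD9low cells, a difference of 0.36, or 0.63 without CD9low replicate 2. Foxp4 averaged 5.85 ± 0.79 in CD9high cells and 6.13 ± 0.48 in CD9low cells, a difference of -0.28, or -0.10 without that array.

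FOXO proteins carry insulin and stress signals to the genome. Foxo1 averaged 6.39 ± 0.22 in CD9high cells and 6.38 ± 0.30 in CD9low cells, a difference of 0.01 (95% interval -0.51 to 0.53). Foxo3 averaged 7.49 ± 0.76 in CD9high cells and 7.16 ± 0.55 in CD9low cells, a difference of 0.33 (95% interval -0.56 to 1.21). Neither transcript level speaks for the activity of the protein, which is set by phosphorylation.

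On the list of FOXO target genes 19 of 21 were measured, 1 rose and 0 fell in CD9high cells, with 11 above 0 and a median of 0.10 against -0.04 over all genes. The one that rose was Sesn3, a stress-induced regulator of mTORC1, with 7.25 ± 0.50 in CD9high cells and 5.97 ± 0.16 in CD9low cells (difference 1.28, SE 0.27, limma adjusted p = 0.0460). This call held without CD9high replicate 4 (adjusted p = 0.031) and was lost without any other array, with adjusted p of 0.0539 to 0.157. Irs2, an adaptor of the insulin receptor, differed by -1.15 (adjusted p = 0.126), and Txnip, a thioredoxin inhibitor, by -0.74 (adjusted p = 0.329). Upstream of FOXO, 0 of 12 measured genes passed the test, with a median of 0.01. Irs2 is on that list too, with Insr, the insulin receptor (-0.62), and the kinase gene Pdpk1 (-0.41).

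Foxc1 and Foxc2, needed for vessel and mesoderm formation, were close to background and differed by less than the spread. Foxc1 averaged 5.25 ± 0.53 in CD9high cells and 5.27 ± 0.90 in CD9low cells (difference -0.03, 95% interval -0.99 to 0.93, and 0.41 without CD9low replicate 2). Foxc2, a driver of brown-fat-like gene expression when overexpressed in mouse fat, averaged 5.37 ± 0.50 in CD9high cells and 5.37 ± 0.80 in CD9low cells (difference -0.01, 95% interval -0.89 to 0.88, and 0.34 without that array). Foxf2, a factor of gut and brain pericyte mesenchyme, averaged 5.72 ± 0.63 in CD9high cells and 5.67 ± 0.40 in CD9low cells, a difference of 0.04, or 0.24 without CD9low replicate 2. Foxs1, expressed in pericytes and neural crest derivatives in mouse, averaged 6.47 ± 0.68 in CD9high cells and 7.01 ± 1.21 in CD9low cells, a difference of -0.54 (95% interval -1.77 to 0.69). CD9low replicate 2 had the highest Foxs1 value, 8.75, where the others of its fraction had 5.95 to 6.79, and without it the difference was 0.04.

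Pericyte and smooth muscle markers stood beside the Foxs1 and Foxf2 values. All 9 on the list were measured and 0 passed the test, with 8 below 0 and a median of -0.32, or 7 below 0 and -0.24 without CD9low replicate 2. The smallest p belonged to Notch3 (-0.82), Mcam (-0.63) and Rgs5 (-0.60). Their summed intensity ran from 2644 to 3574 in CD9high cells and from 3134 to 5279 in CD9low cells, where the highest was 4523 without that array. Their part in the Foxs1 and Foxf2 values was not tested.

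Foxa3, a factor known for liver gene expression and for fat expansion in mice, did not pass the filter. It was above background on 3 CD9high arrays and 0 CD9low arrays, with means of 4.79 ± 0.06 in CD9high cells and 4.41 ± 0.09 in CD9low cells (SD, n = 4 each). CD9low gives only a bound, taken from the lowest signal above background on each CD9low array. The CD9high mean was 1.01-fold that bound. This margin makes no allowance for the spread between arrays, so it does not show a higher level of Foxa3. Fitted with all genes and no filter, its adjusted p was 0.0799 by limma.

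Tbx18, which marks perivascular and epicardial mesenchyme, read 7.51, 7.50, 8.12 and 7.79 in CD9high cells, against 8.24, 5.96, 8.17 and 7.63 in CD9low cells. CD9low replicate 2 was far below all other arrays, and without it the difference of 0.23 (SE 0.46, 95% interval -0.78 to 1.24, limma adjusted p = 0.893) was -0.28. Slides 1 and 2 gave 0.26 and 0.16. The other Tbx18 probe did not pass the filter, with 1 CD9high and 2 CD9low arrays above background, and gave -0.13. Tbx3, a repressor in limb and mammary development, read 6.89, 7.65, 7.91 and 7.47 in CD9high cells, against 7.20, 8.59, 7.16 and 6.37 in CD9low cells. The CD9high values lay inside the CD9low range, with a difference of 0.15 (SE 0.43, 95% interval -0.79 to 1.09, limma adjusted p = 0.929). It was -0.16 on slide 1, 1.10 on slide 2 and 0.57 without CD9low replicate 2. The other measured Tbx3 probe gave 0.33.

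Tbx6, a factor of presomitic mesoderm, was barely measured. It read 4.30, 4.45, 5.66 and 4.65 in CD9high cells, against 4.28, 5.09, 4.71 and 5.22 in CD9low cells, and was above background on 1 CD9high and 3 CD9low arrays. The difference was -0.06 (SE 0.34, 95% interval -0.81 to 0.69, limma adjusted p = 0.968), 0.11 on slide 1 and -0.57 on slide 2, and 0.03 without CD9low replicate 2. Of the T-box genes with other names, 1 of 3 on the array was measured: Mga, a partner of MAX, differed by -0.76 (adjusted p = 0.589).

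**Figure D5:**
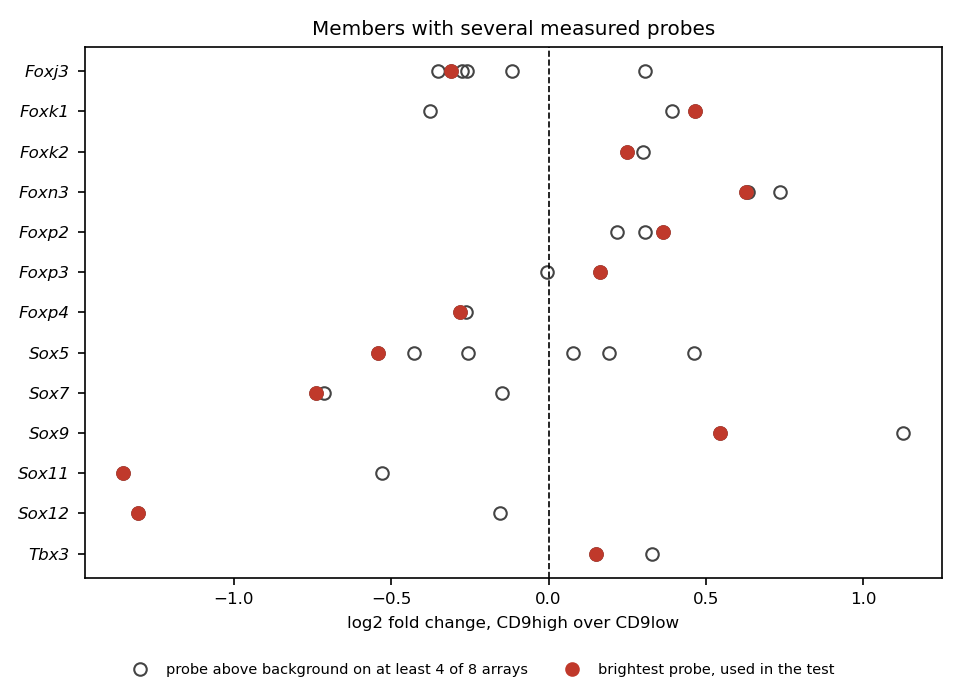
Log2 fold change of CD9high over CD9low (horizontal axis) of every measured probe of the 13 members with several, with the brightest probe filled. For 9 members all probes lie on one side of 0, and the Sox11 and Sox12 probes differ in size from -1.35 to -0.53 and from -1.30 to -0.16.

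Probes of the same gene gave a check within the arrays. The members had 149 probes, of which 54 passed the filter, and 0 of these passed the test when adjusted over all 18085 named probes. Among the 13 members with several measured probes, all probes shared one direction in 9: Foxk2, Foxn3, Foxp2, Foxp4, Sox7, Sox9, Sox11, Sox12 and Tbx3. They were split in Foxj3, Foxk1, Foxp3 and Sox5. Probes of one gene share the RNA of the same arrays and can hit different transcripts, so they are no replicates.

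A list of other mesenchymal transcription factors was set beside the Fox, Sox and Tbx genes. Of its 24 genes 18 were measured, 1 rose and 0 fell, with a median of 0.05. Osr2, a zinc finger factor of limb and palate mesenchyme, rose, with 7.04 ± 0.30 in CD9high cells and 5.31 ± 0.47 in CD9low cells (difference 1.73, SE 0.28, limma adjusted p = 0.0133). Without CD9high replicate 3 its adjusted p was 0.0555. The homeobox genes Meox1 and Meox2 differed by -1.10 (adjusted p = 0.0872) and 1.44 (adjusted p = 0.177). Meox1 passed the test without CD9high replicate 2 (adjusted p = 0.0439), and Meox2 without CD9low replicate 2 (difference 1.85, adjusted p = 0.0156). Among TCF and LEF factors, which carry an HMG box like SOX proteins, and their partner beta-catenin, 0 of 3 measured genes passed the test: Tcf7l1 differed by -0.58, Ctnnb1 by 0.37 and Tcf7l2 by 0.02.

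Marker lists of the remaining cell types held 0 genes past the test. The 7 measured progenitor markers summed to 21137 to 27934 in CD9high cells and 23870 to 29753 in CD9low cells, with Cd34 at 0.50, Lum at 0.23 and Dcn at -0.18. Leukocyte markers summed to 556 to 2796 in CD9high cells and 399 to 4164 in CD9low cells, with Cd74 at -0.40, Cd52 at -0.36 and Ptprc, which encodes CD45, at -0.18. Over all arrays the 6 measured leukocyte genes lay below 0, but without CD9low replicate 2 this held for 2 of them and the median was 0.24. Laptm5, Tyrobp and Cd74 were above background on every array of both fractions. Mesothelial markers (5 of 10 measured) lay above 0 over all arrays, and 4 of them without CD9low replicate 2, with Gpm6a at 0.86, Upk3b at 0.48 and Nkain4 at 0.33, and summed to 316 to 599 in CD9high cells and 222 to 410 in CD9low cells. Schwann cell markers, which stand beside the unmeasured Sox10, were at background for Erbb3 and Gfra3 on all arrays, and Cdh19 was above it on 2. Mbp (0.02) and S100b (-0.01) were above background on 2 arrays of each fraction and did not differ by more than the spread. Epithelial markers (Cdh1 0.25, Krt8 0.06, Cldn7 -0.01) and adipocyte markers (Cidec -0.31, Adipoq -0.07, Lep 0.000146) differed by less than the spread, and Epcam and Plin1 were above background on 0 arrays. Lep and Cldn7 were above background on every array. Adipoq and Cdh1 were so on 4 CD9high and 3 CD9low arrays, and Cidec on 3 CD9high and 4 CD9low arrays. The part of all these cell types in the members' values was not tested.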

How the data were processed

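Sorted progenitors, 4 CD9high and 4 CD9low samples grouped by their titles and cell type labels, were hybridised to Illumina mouse arrays. The authors deposited signal intensity values that were not normalized between arrays and that stand, per the file headers, beside a detection p-value. The submitters' processing notes name GenomeStudio, with a version not given in the sources used here. A second deposited table of intensity values, with nearly the same distribution on every array, served only as an alternative. Per the labels' protocols, RNA was amplified before labelling (Ovation Pico WTA), which can distort ratios between transcripts. A background had already been subtracted from the deposited signals, and the further background step used here compresses the differences of dim probes.

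R 4.3.3 with limma 3.58.1 was used throughout. Its neqc function was run with negative controls inferred from detection, an offset of 16 and quantile normalization, on a log2 scale. Probes with a detection p under 0.05 on at least 4 of 8 arrays were kept, and the kept probe with the highest mean stood for its gene. Platform annotation gave 1 symbol to 34885 of 45281 probes, several to 18 and none to 10378. The 10724 genes kept were fitted with lmFit and eBayes and no block. Benjamini-Hochberg adjustment ran over all of them, with a threshold of 0.05. The fit was tested on simulated data. Depth on an array means signal over background, which 41.1% to 51.1% of probes reached, and precision is limited by having 4 arrays per fraction.

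Members were matched by symbol, and the members and the lists of pathway genes and cell markers were chosen with earlier results of these data known. Members are given in full where they passed the test, did not overlap between fractions or differed by 1 or more on the log2 scale, and for the 4 brightest probes' genes of each family. Sox7 is added because it is needed to state a count. On every other list the 3 genes with the smallest p and each gene past the test are named. Alternatives were no background correction, median centring, an offset of 50, the second deposited table, no filter, a stricter filter (detection p under 0.01), the mean of a gene's probes, the slide as a block, slide 1 alone, a replicate block and leaving out each array. Promoter sequences and gene order come from RefSeq (GRCm38.p6). Probe sequences were not compared with near-identical genes, and no protein sequences were used here.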

Additional observations from a re-analysis of the deposited data

Results flagged for a closer look

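Each tested member's 4 values per fraction were checked for 1 array far from the other 3, over 58 groups of values. Dixon's test picked 4 of them, where chance at 1 in 20 gives 2.9. Foxn3 was low on CD9high replicate 4, at 8.80 against 9.57 to 9.72 on the other CD9high arrays. Foxk2 was low on CD9high replicate 1, at 9.56 against 10.05 to 10.13. Foxp2 was high on CD9low replicate 2, at 6.23 against 5.04 to 5.23 on the other CD9low arrays, and Foxf2 was high on the same array, at 6.27 against 5.41 to 5.52. CD9low replicate 2 is also the array that stood apart over all genes.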

How the results depend on the processing

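No member passed the adjusted threshold of limma with any other background step, scaling, offset, filter or probe rule, or with the slide or the replicate number as a block. Leaving out each array in turn gave 0 to 1 member: Sox11 without CD9high replicate 4 (difference -1.77, adjusted p = 0.0212) and Sox17 without CD9low replicate 4 (-1.64, adjusted p = 0.0369). Of 233 fold changes of the 13 members given in full, over 18 alternatives, 221 kept their direction and their side of the threshold. Tbx3 turned to -0.16 on slide 1 alone and spanned -0.17 to 0.57 when each array was left out. Tbx6 turned to 0.043 with median centring and 0.11 on slide 1 alone, with -0.36 to 0.094 over the arrays left out. Foxp3 spanned -0.00118 to 0.33 and Tbx18 -0.28 to 0.48 in the same way. The cause of these turns was not tested. Median centring, an offset of 50 or the mean of a gene's probes left 3 members at an unadjusted p under 0.05, without Sox7. Leaving out each array gave 3 or 4 members at that level, and Sox7 was the one lost. The filter passed 74 members when dropped and 27 when stricter. Of the 16 members not given in full, 11 turned with at least 1 array left out, and 4 did so without CD9low replicate 2, a setting chosen for them after seeing the data. Among all genes, 76 were called with the replicate block, 48 on slide 1 alone, which has fewer arrays, and 54 to 230 with each array left out. Same-numbered arrays of the CD9high and CD9low fractions correlated at 0.22, -0.10, 0.18 and 0.16 in their deviations from the fraction means. Differently numbered ones ran from -0.35 to 0.27. These values do not settle whether the numbers pair samples, and the main fit used no block. With the replicate number as a block, 0 members were called, with a lowest limma adjusted p of 0.103. Signal over background limits the dim members most: an offset of 50 brought the Sox17 difference to -0.76.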
